A study of Pardosa pseudoannulata with 16 samples.

Results

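In a set of 100 sequence clusters of the wolf spider Pardosa pseudoannulata, each cluster had its 4 lowest values in the libraries of the group UH. Some members were also low in single libraries of other groups. A cluster is an assembled transcript sequence, or several related ones, listed under one name. The members were chosen by their measured values in all 16 libraries. A cluster qualified where the lowest of its 12 values in the groups Ck, UL and UM exceeded its highest UH value, and where the highest UM value was not below the lowest of the 8 Ck and UL values. Of 136360 clusters, 2358 qualified, and the 100 with the widest gap were taken. The gap is the lowest of the 12 values minus the highest UH value on the log2(FPKM + 1) scale. FPKM counts fragments per kilobase of cluster and per mega (M) of mapped fragments, so levels are per length. All 100 members passed the filter used for tests, at least 1 FPKM in at least 4 libraries.

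The study concerns the effect of urea, used as nitrogen fertiliser, on a spider that hunts insects in rice fields. Whole spiders gave the RNA, and the labels name 4 groups, Ck, UL, UM and UH, of 4 libraries each. The design text describes adult spiders caught in the field and kept for 30 days on soil with 0, 200 or 400 mg/kg urea. It does not tie these 3 concentrations to 4 groups, and the labels enter the same treatment, urea, for every library, Ck included. No dose is therefore given to a group, and the names are not read as an order. Strain, sex and the number of animals behind a library are not stated. Since the labels do not call replicates separate animals or pools, a p-value here reflects the spread among libraries, possibly a technical one.

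Urea is taken up by plants and soil microbes as a nitrogen source, and spiders themselves excrete most of their nitrogen as guanine and related purines. A whole-spider library mixes RNA from midgut, muscle, silk and venom glands, gonads, nervous tissue and cuticle. A transcript made in 1 tissue can therefore be abundant in such a library. In whole animals, fewer cells of a type and less RNA per cell cannot be told apart. Neither gene names, functions nor sequences accompany the clusters in the table, so members are called by their cluster names and no role is given to any of them.

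Estimated depth lay between 16.66 and 20.91 M fragments per library, and between 18.47 and 19.49 M in the UH libraries. Between 76712 and 78807 clusters were listed above 0 in a UH library, against 79811 to 97015 in Ck, 77409 to 90373 in UL and 78216 to 83174 in UM. The part of this difference in the members' values was not tested. No library was a copy of another, and the highest correlation between 2 libraries, across clusters, was 0.936.

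Of the FPKM sum of a UH library, the members together made up 0.0358 to 0.0451%, with sums of 284.7 to 346.9 FPKM. In Ck they made up 0.449 to 1.06%, in UL 0.391 to 1.59% and in UM 0.488 to 1.44%. The 4 UH sums were close to each other, while the 12 other sums ran from 2966.3 FPKM in UL replicate 2 to 11913.2 FPKM in UM replicate 3. The median member had 0.585 to 1 FPKM in a UH library and 8.035 to 39.82 FPKM in the others. In 95 members the ratio of the mean of the 12 libraries to the mean of UH could be formed. It ran from 2.886 to 5921 with a median of 17.82, and was at least 10 in 58 members and at least 100 in 21. The other 5 members were listed at 0 in every UH library. In 46 members no UH value reached 1 FPKM, and in 36 every UH value was at least 1 FPKM. These values chose the members and are given as a description.

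**Figure D1:**
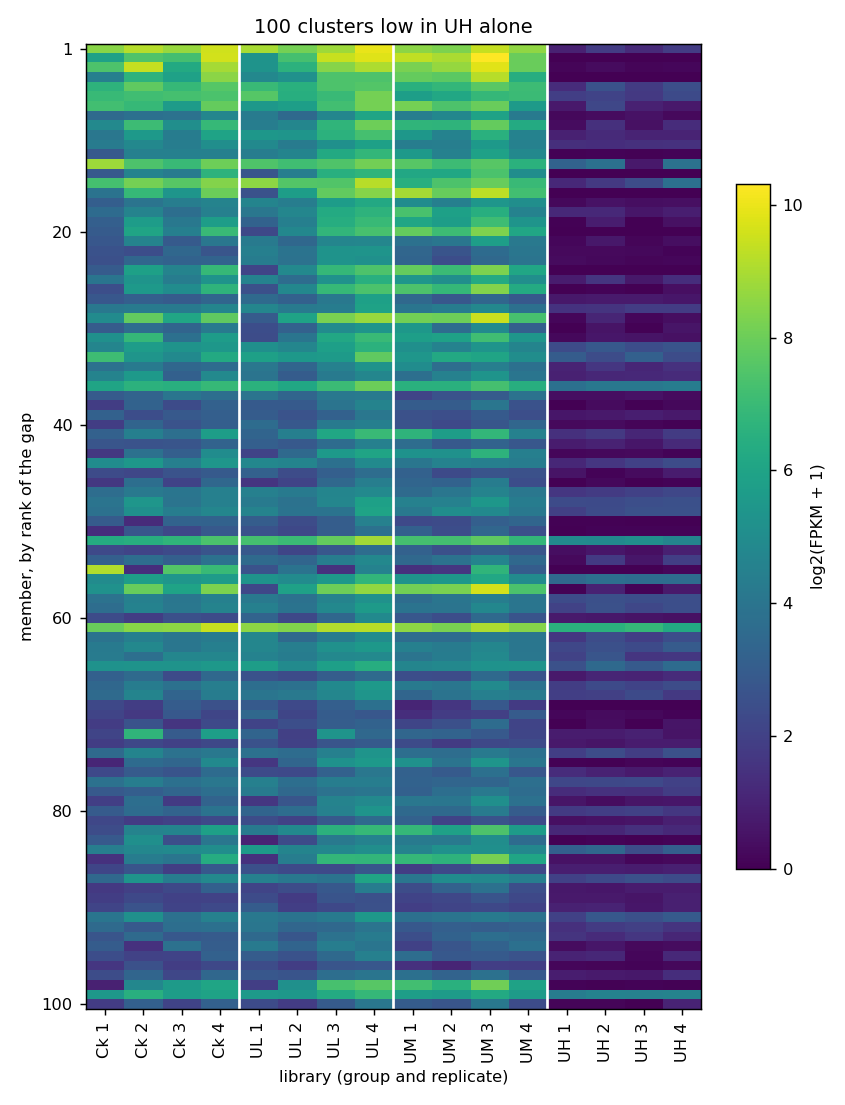
Each row is 1 of the 100 members, ordered by the gap from rank 1 at the top, and each column 1 of the 16 libraries; colour gives log2(FPKM + 1). The 4 UH columns are dark in nearly every row, and the brightness of the other 12 columns differs between libraries of the same group, most of all in the upper rows.

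The gap was 6.30 at rank 1, had a median of 1.24 and was at least 1 in 75 members. The threshold fell in a dense part of the ranking. Cluster-9253.47012 at rank 99 had 42.53 FPKM as its lowest value outside UH and 23.42 FPKM as its highest UH value. Cluster-9253.42980 at rank 100 had 2.55 and 1.01 FPKM. The next in the ranking, just outside, were Cluster-9253.57935 with 3.27 and 1.43 FPKM and Cluster-9253.52505 with 4.5 and 2.13 FPKM. The condition on UM removed 65 clusters in all, 3 of which would have been among the first 100.

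Of the abundant members, 5 were listed at 0 in all 4 UH libraries. Cluster-9253.52189 (339 bases, rank 2) had 59.44, 177, 151.02 and 777.06 FPKM in Ck, 37.81, 153.44, 699.63 and 887.15 FPKM in UL, and 641.12, 517, 1267.63 and 250.26 FPKM in UM. One fragment on so short a cluster was worth 0.71 to 0.937 FPKM in UH, and the values outside UH corresponded to an estimated 47 to 1592 fragments. Cluster-9253.69669 (361 bases) had 20.91, 100.51, 57.91 and 366.46 FPKM in Ck, 27.11, 36.06, 172.52 and 173.43 FPKM in UL, and 232.52, 207.67, 579.85 and 85.34 FPKM in UM. In both clusters Ck and UL libraries of 1 group differed more than 6-fold, and the 3 groups overlapped.

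Cluster-9253.50346 (1404 bases) had 14.4, 118.49, 40.97 and 253.28 FPKM in Ck, 5.09, 52.95, 229.22 and 349.27 FPKM in UL, and 487.93, 243.32, 623.3 and 144.15 FPKM in UM. Cluster-9253.72011 (2600 bases) had 6.76, 64.45, 20.77 and 126.93 FPKM in Ck, 3.74, 26.68, 108.27 and 159.65 FPKM in UL, and 231.9, 131.4, 313.38 and 68.08 FPKM in UM. Cluster-9253.31640 (452 bases) had 6.69, 56.73, 23.69 and 117.82 FPKM in Ck, 3.33, 27.85, 115.6 and 169.21 FPKM in UL, and 233.87, 129.83, 308.53 and 68.38 FPKM in UM. All 3 had their lowest value outside UH in UL replicate 1 and their highest in UM replicate 3. On Cluster-9253.72011, the longest of the 5, 1 fragment was worth 0.022 to 0.0232 FPKM in UH.

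Other members were close to 0 in UH without being listed at 0 throughout. Cluster-9253.46820 (1367 bases, rank 3) had 0.1, 0.24, 0.09 and 0.14 FPKM in UH, an estimated 1.9 to 5 fragments. It had 169.74, 675.42, 76.42 and 478.74 FPKM in Ck, 38.04, 97.45, 342.44 and 526.33 FPKM in UL, and 300.4, 407.47, 930.62 and 249.94 FPKM in UM, so no library outside UH fell below 38.04 FPKM. Cluster-9253.41586 (2928 bases) had 0, 0.02, 0.02 and 0 FPKM in UH and 5.52 to 166.96 FPKM in the other 12 libraries, the highest ratio of means among the members (5921). Cluster-9253.53118 (6472 bases, rank 12) had 0.03, 0.06, 0.04 and 0.08 FPKM in UH and 6.4 to 111.45 FPKM elsewhere. Its Ck values were 6.4, 21.69, 21.66 and 21.5 FPKM, with replicate 1 below the other 3. Cluster-9253.41344, at 13206 bases 1 of the 5 longest members, had 0.01, 0, 0.01 and 0 FPKM in UH and 1.08 to 12.85 FPKM elsewhere. With an estimated 258 to 3104 fragments in each of those 12 libraries, its low UH level does not rest on a short sequence.

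The member with the widest gap, Cluster-9253.48286 (1341 bases), was also the most abundant by the mean of the 12 libraries. It had 350.46, 578.67, 417.1 and 764.8 FPKM in Ck, 501.76, 280.23, 438.6 and 989.31 FPKM in UL, 363.86, 308.71, 672.39 and 386.46 FPKM in UM, and 0.91, 2.55, 1.34 and 2.56 FPKM in UH. The group means were 527.8 ± 184.8, 552.5 ± 305.8, 432.9 ± 163.0 and 1.84 ± 0.844 FPKM (SD, n = 4). In contrast to the clusters above, its 12 values outside UH stayed within 1.82 log2 units, and its UH values still stood for an estimated 18.1 to 53 fragments. Cluster-9253.47364 (1451 bases, rank 5) was alike in this respect, with 91.07 to 220.68 FPKM in the 12 libraries and 1.46, 5.11, 2.47 and 4.55 FPKM in UH. Cluster-9253.48278 (3487 bases, rank 6) had 123.36, 142.62, 151.83 and 167.55 FPKM across Ck, but 2.79, 3.16, 2.31 and 4.03 FPKM in UH. Its UL values were 194.46, 86.04, 125 and 287.89 FPKM and its UM values 54.43, 70.82, 114.79 and 128.86 FPKM, so UM overlapped both other groups.

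The other members of the first 12 spread over several levels. Cluster-9253.49764 (1454 bases) had 43.58 to 285.06 FPKM outside UH and 0.64, 3.59, 0.91 and 0.65 FPKM in UH. Cluster-9253.52302 (5558 bases) had 10.64 to 66.33 FPKM outside UH and 0.18 to 0.41 FPKM in UH. For Cluster-9253.41527 (1095 bases) these ranges were 19.85 to 263.28 and 0.26 to 1.73 FPKM. Cluster-9253.51168 (2700 bases) had UH values close to each other, 1.64, 1.56, 1.73 and 1.8 FPKM, beside 18.41 to 57.02 FPKM in the other libraries. Cluster-9253.46182 (8669 bases, 1 of the 5 longest) was similar, with 0.93, 1.32, 1.03 and 1.02 FPKM in UH and 15.81 to 153.25 FPKM elsewhere. Further down the ranking, Cluster-9253.47324 (817 bases), among the 5 most abundant, had UH values that spread further, 1.28, 2.26, 4.33 and 13.09 FPKM beside 88.94 to 580.99 FPKM.

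**Figure D2:**
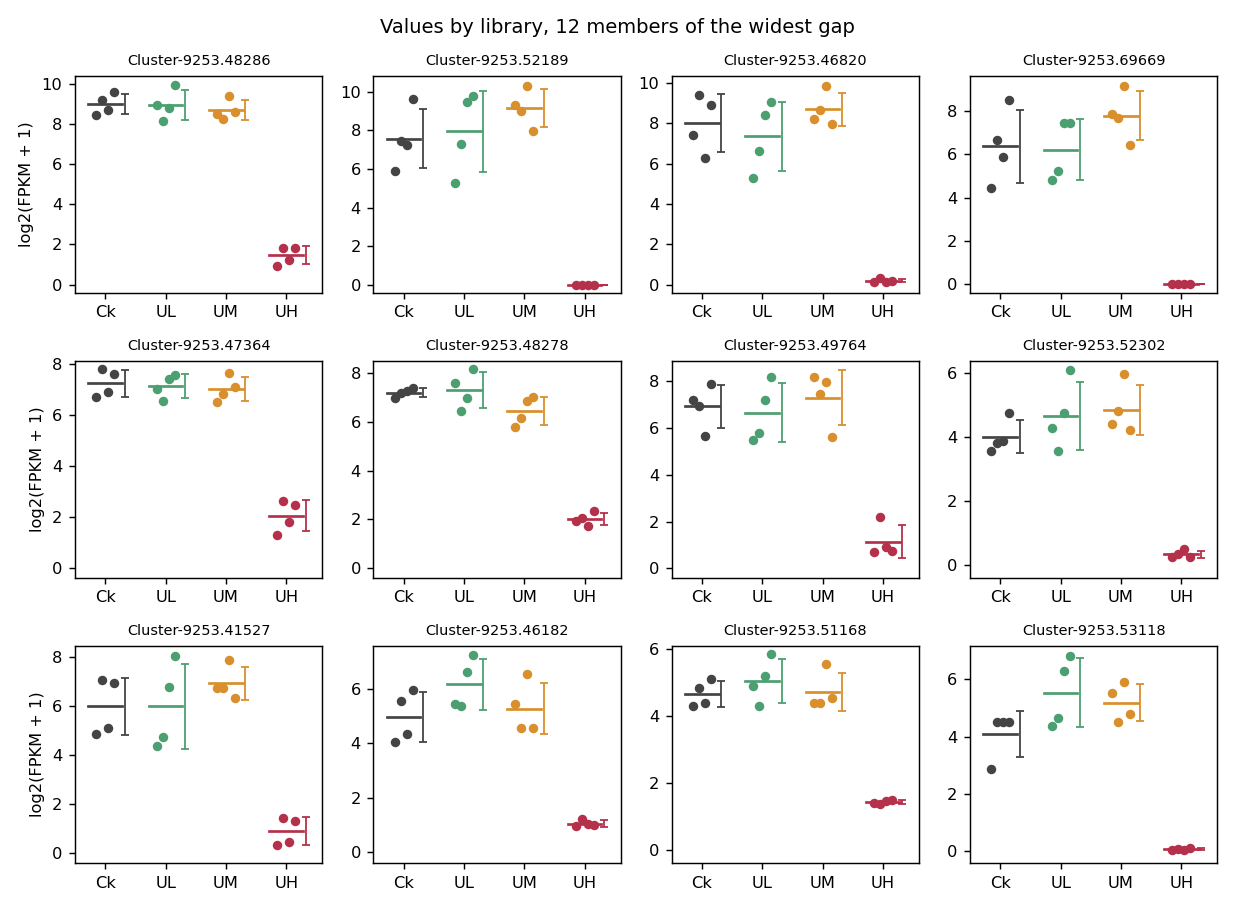
Each panel shows 1 of the 12 members with the widest gap; points are libraries in replicate order, horizontal lines group means and bars SD (n = 4), on the log2(FPKM + 1) axis. UH lies below every other library in each panel; for Cluster-9253.48286 the other 12 stay within 1.82, while those of Cluster-9253.52189 spread over 5.03.

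A further part of the set was lower in UH but well above 0 there. In 5 members every UH value was at least 10 FPKM. Cluster-9253.49103 (3187 bases) had the highest UH level, 94.46, 95.58, 114.61 and 74.99 FPKM, against 246.1, 355.53, 372.09 and 694.42 FPKM in Ck, 372.33, 326.57, 556.89 and 595.11 FPKM in UL and 379.88, 299.36, 522.75 and 348.98 FPKM in UM. Its mean over the 12 libraries was 4.452 times its UH mean. Cluster-9253.48696 (3462 bases) had 29.83, 28.71, 33.27 and 24.31 FPKM in UH and 79.37 to 464 FPKM elsewhere, and Cluster-9253.47211 (1698 bases) 13.07, 16.42, 16.47 and 18.86 FPKM and 63.53 to 251.62 FPKM. Cluster-9253.47012 (4571 bases) had the smallest ratio of means in the set, 2.886, with 19.07, 22.78, 22.08 and 23.42 FPKM in UH. The longest member, Cluster-9253.48459 (20812 bases), had 4.11, 6.06, 4.39 and 5.48 FPKM in UH and 22.73 to 98.14 FPKM elsewhere, and Cluster-9253.50437 (13053 bases) 2.73, 4.24, 2.68 and 4.9 FPKM and 10.8 to 39.07 FPKM. In these clusters the 4 UH values spanned a smaller fold than the 12 others, which the unequal numbers of libraries favour. No steadiness of UH is read from this.

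The steadiest members outside UH were mostly of low level. Cluster-9253.39929 (3769 bases) had 2.68, 3.65, 2.99 and 3.15 FPKM in Ck, 4.14, 2.49, 5.34 and 4.7 FPKM in UL, 3.24, 3.52, 5.43 and 3.74 FPKM in UM, and 0.62, 0.65, 0.48 and 0.85 FPKM in UH. Its range over the 12 libraries, 0.88 log2 units, was the smallest of the 100. Cluster-9253.46854 (4562 bases) had 0.81, 0.8, 0.74 and 0.85 FPKM in UH and 2.52 to 6.09 FPKM elsewhere. Cluster-9253.37442 (745 bases) had 0.54 to 1.02 FPKM in UH, an estimated 5 to 8.9 fragments, so its UH level rests on few fragments. Cluster-9253.44992 (1463 bases) was steady at a higher level, 12.74 to 28.23 FPKM outside UH and 3.11, 5.54, 2.02 and 2.2 FPKM in UH.

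Outside UH the members differed in how far their values spread, without a break between wide and narrow ranges. The range over the 12 libraries ran from 0.88 to 7.74 log2 units with a median of 2.42, beside a median of 1.23 for all 36003 tested clusters and 0.805 for the tested clusters that met the rule. These sets differ in level, with medians of 17.3, 2.59 and 5.08 FPKM in this order. The log2(FPKM + 1) scale narrows ranges at low level, and the ranking by gap favours a high level. The wider range of the members is therefore given as a description. A limit of 3 log2 units, set after the values were seen, gave 31 members with a wide range and 69 with a narrower one. Those with a wide range included all 5 members listed at 0 in UH, 12 of the first 20 by rank and 24 of the 46 members that stayed under 1 FPKM in UH.

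**Figure D3:**
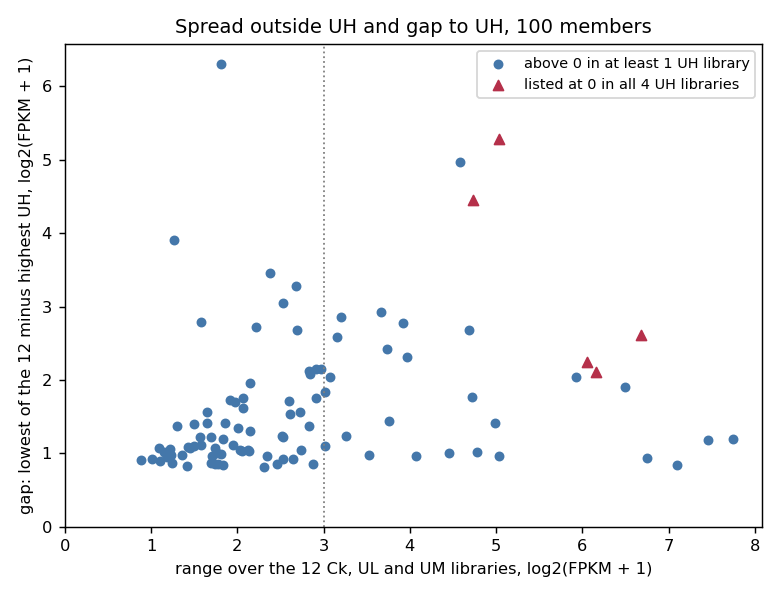
Each point is 1 of the 100 members, with its range over the 12 Ck, UL and UM libraries on the x axis and its gap to UH on the y axis, both in log2(FPKM + 1); triangles are the 5 members listed at 0 in all UH libraries and the dotted line is the limit of 3. Wide gaps occur on both sides of the line, and the 5 triangles lie to its right.

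Most of the 31 widely spread members were high and low in the same libraries. UL replicate 4 was among the 3 highest of the 12 libraries in 27 of them, UM replicate 3 in 26 and UL replicate 3 in 14. Ck replicate 1 was among the 3 lowest in 26, UL replicate 1 in 24 and Ck replicate 3 in 16. UL replicate 2 was among the 3 lowest in 11. Within UL, the median deviation of the 31 from their own median of the 12 libraries was -2.36 and -1.19 log2 units in replicates 1 and 2. In replicates 3 and 4 it was 0.82 and 1.225. This order thus runs within groups as well as between them. In 11 members UL replicate 1 was the lowest and UM replicate 3 the highest library. The single highest library was UM replicate 3 in 54.8% of the 31, beside 10.9% of tested clusters, and UL replicate 4 in 29%, beside 22.4%. The single lowest was UL replicate 1 in 46.7%, beside 4.23%, and Ck replicate 1 in 40%, beside 21.6% (ties left out). The 31 were chosen by their spread over these same libraries, so these shares are a description.

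The members with the widest ranges show both this order and an exception to it. Cluster-9253.50050 (1689 bases) had 3.54 FPKM in UL replicate 1 and 58.52, 262.98 and 394.38 FPKM in the other UL libraries, 796.3 FPKM in UM replicate 3, and 0.04, 1, 0.07 and 0.62 FPKM in UH. Cluster-9253.38110 (3490 bases) had 0.94, 26.28, 48.11 and 65.98 FPKM in Ck, 2.8, 35.18, 156.63 and 197.58 FPKM in UL and 143.17, 92.21, 264.87 and 60.04 FPKM in UM. Cluster-9253.32285 (1844 bases) had 1.76 and 1.71 FPKM in Ck replicate 1 and UL replicate 1 and up to 289.98 FPKM in UM replicate 3. The lowest values outside UH, 3.54, 0.94 and 1.71 FPKM, stood above highest UH values of 1, 0.08 and 0.41 FPKM. In all 3, single Ck or UL libraries were thus far below others of their own group. Cluster-9253.51640 (13044 bases, 1 of the 5 longest) had 4.21 FPKM in Ck replicate 1, 169.74 FPKM in UM replicate 3 and 1.22, 1.16, 1.68 and 1.3 FPKM in UH.

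Cluster-9253.47647 (696 bases) had the widest range and another order. Its Ck values were 549.34, 1.57, 185.87 and 123.03 FPKM, its UL values 5.04, 14.2, 1.76 and 23.03 FPKM and its UM values 1.7, 2.07, 107.5 and 7.03 FPKM, and it was listed at 0, 0, 0 and 0.12 FPKM in UH. Its lowest values outside UH amounted to an estimated 13 to 15 fragments. Cluster-9253.28970 (715 bases) also departed from the order, with 106.8 FPKM in Ck replicate 2 and 53.16 FPKM in Ck replicate 4, 2.92 to 39.05 FPKM in the other 10 libraries outside UH and 0.47 to 0.93 FPKM in UH.

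Some widely spread members kept a nearly fixed ratio to each other. Of the 465 pairs among the 31 members, 6 kept their FPKM ratio within 2-fold over the 12 libraries, and 9 members were in such a pair. For each pair the highest ratio was divided by the lowest, and the median of this over all pairs was 14.49. Cluster-9253.72011 and Cluster-9253.31640 stood in a ratio of 0.877 to 1.14. Cluster-9253.50346 was 1.53 to 2.15 times Cluster-9253.31640, and Cluster-9253.52189 was 6.85 to 9.2 times Cluster-9253.41586. The clusters of a pair may be parts of 1 transcript, which the table does not show, so these members are not taken as independent. The cluster numbers of these pairs are not neighbours. The 1 pair of members with consecutive names, Cluster-9253.31075 and Cluster-9253.31076, had a less steady ratio, 0.351 to 1.27.

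Among the 69 narrowly spread members 1 library was most often at the top. UL replicate 4 was the highest of the 12 libraries in 50 of them and in 59 of all 100 members, beside 22.4% of all tested clusters and 52.7% of the tested clusters that met the rule (clusters with tied libraries left out). UM replicate 3 was the highest in 21 of the 100. Ck replicate 1 was the lowest of the 12 in 31 of 97 members without a tie, beside 21.6% of tested clusters. Within UH, replicate 1 was the lowest library in 41 of 88 members without a tie, and among 89 replicate 4 was the highest in 39 and replicate 2 in 28.

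**Figure D4:**
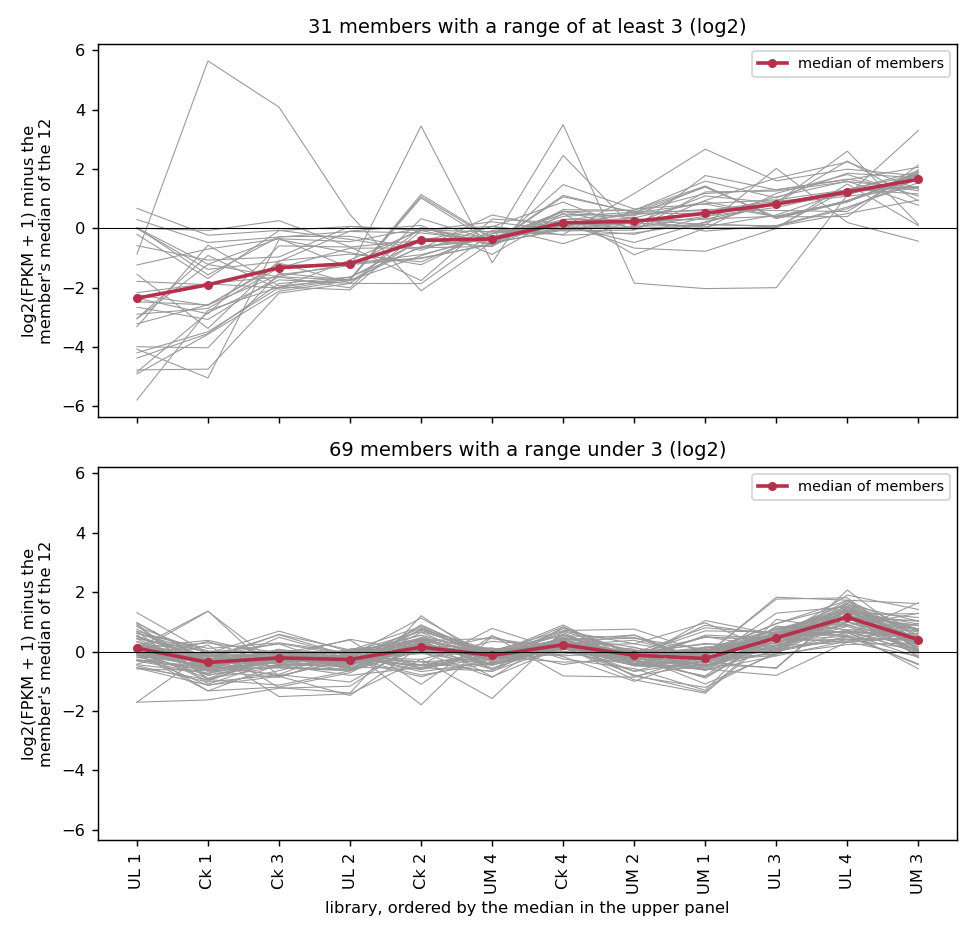
Each grey line is 1 member, as log2(FPKM + 1) minus its median over the 12 Ck, UL and UM libraries; the red line is the median of the members in the panel (31 above, 69 below) and libraries are ordered by the upper median. The upper median runs from -2.36 in UL replicate 1 to 1.65 in UM replicate 3; the lower one is at 1.16 in UL replicate 4 and between -0.37 and 0.46 elsewhere.

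Whether Ck, UL and UM differed among themselves in these clusters is a question the rule left largely free. It was limited by the condition on UM and by requiring all 12 values to lie above the UH values. This requirement disfavours clusters that are off in 1 of these groups. Tests were made with limma over all 36003 tested clusters and adjusted by the Benjamini-Hochberg method over all of them. The fit shared its estimate of spread over all 4 groups, UH included. The members' UH values were chosen to be low and had a median range of 0.424 log2 units, against 2.42 over the 12 other libraries. For all tested clusters these medians were 0.574 and 1.23. A range over more libraries and groups tends to be wider, so the 2 ranges are not alike. The shared spread may be too small for contrasts among Ck, UL and UM, and with it the p-values of members. These ranges alone cannot show this. Between UL and Ck 0 of 100 members passed, beside 0.0167% of tested clusters, and 20 members had an unadjusted p under 0.05, beside 16.8% of tested clusters. The median log2 difference of the members was 0.43, beside 0.10 for all tested clusters. The UL libraries were uneven in the members. The median member had 39.82 FPKM in UL replicate 4 and 13.58 FPKM in UL replicate 2. UL replicate 4 was the highest of the 12 libraries in 59 members, beside 22.4% of tested clusters, and its part in this median was not tested. Cluster-9253.56143 (2492 bases) came closest to passing, with 5.11, 4.35, 9.94 and 5.5 FPKM across Ck, against 20.85, 14.02, 38.09 and 39.32 FPKM in UL. The groups did not overlap, and the log2 difference was 1.95 ± 0.34 (SE; limma adjusted p = 0.0824). With 1 library left out it passed without Ck replicate 2 (0.0072) and without Ck replicate 3 (0.0367), and it passed with array weights (0.0448). In 2 members, this one and Cluster-9253.43845, every UL value lay above every Ck value, beside 3.51% of tested clusters; in 0 every UL value lay below, beside 1.45%. Without Ck replicate 2, Cluster-9253.43845 and Cluster-9253.47647 passed as well (limma adjusted p = 0.0149 and 0.0167).

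Between UM and Ck 0 of 100 members passed in limma, beside 0.1% of tested clusters, and 14 had an unadjusted p under 0.05, beside 11.5% of tested clusters. The differences ran from -3.04 in Cluster-9253.47647 to 2.89 in Cluster-9253.32285 on the log2 scale (SE 1.43 and 1.09, limma adjusted p = 0.439 and 0.331). The smallest adjusted p was that of Cluster-9253.44829 (1703 bases), with 11.24, 23.62, 12.17 and 21.25 FPKM across Ck, against 162.36, 56.93, 86.68 and 22.8 FPKM in UM. Its log2 difference was 1.95 ± 0.58, with limma adjusted p = 0.275, and UM replicate 4 lay inside the Ck values. Other members high in UM, among them Cluster-9253.29210 (1605 bases) with 4.58, 46.89, 30.89 and 102.53 FPKM across Ck, against 169.18, 114.87, 337.92 and 78.91 FPKM in UM, also overlapped between the groups. In the opposite direction, Cluster-9253.48784 (1192 bases) had 31.03, 43.13, 20.96 and 41.28 FPKM across Ck, against 15.33, 22.92, 21.02 and 18.85 FPKM in UM, with limma adjusted p = 0.362. Every UM value lay above every Ck value in 2 members, Cluster-9253.53118 and Cluster-9253.40118 (beside 3.7% of tested clusters), and below in 1, Cluster-9253.44382 (beside 2.73%). The median log2 difference of the members between UM and Ck was 0.26, beside 0.06 for all tested clusters. It was 1.42 in the 31 widely spread members and 0.04 in the 69 others. Those 31 were chosen by their spread over these same libraries, so the split is a description.

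Between UM and UL 3 of 100 members passed, all lower in UM, beside 3.22% of tested clusters in either direction and 0.594% lower in UM. In a fit of these 2 groups alone, without the UH values, 0 members passed. The median log2 difference of the members between UM and UL was -0.22, beside -0.07 for all tested clusters. It was 0.94 in the 31 widely spread members and -0.34 in the 69 others, again a description. Cluster-9253.44382 (2063 bases) had 21.57, 12.32, 19.59 and 19.46 FPKM in UL and 8.59, 9.31, 9.28 and 12.49 FPKM in UM. The highest UM value was just above the lowest UL value, and the log2 difference was -0.80 ± 0.18 (SE, limma adjusted p = 0.0326). Cluster-9253.43845 (4399 bases) had 19.11, 13.58, 37.87 and 35.27 FPKM in UL and 9.02, 4.46, 10.19 and 14.49 FPKM in UM, with a log2 difference of -1.36 ± 0.34 (limma adjusted p = 0.0435). Cluster-9253.56143 had 9.65, 5.32, 11.05 and 15.68 FPKM in UM, and its log2 difference from UL was -1.31 ± 0.34 (limma adjusted p = 0.0489). In both clusters 1 UM library, replicate 4, lay above the lowest UL library, replicate 2. These 2 clusters stood in a ratio of 0.449 to 1.19 over the 12 libraries. No overlap between UM and UL was found in 1 member, Cluster-9253.56039, whose UM values ran from 6.08 to 8.31 FPKM against 9.56 to 15.71 in UL, beside 5.31% of tested clusters lower in UM; 0 members had every UM value above every UL value, beside 8.16%. In UH Cluster-9253.56143 had 0.19, 0.21, 0.16 and 0.07 FPKM and Cluster-9253.43845 had 0.25, 0.15, 0.09 and 0.12 FPKM, whereas Cluster-9253.44382 kept 3.61, 3.75, 3.86 and 2.96 FPKM.

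The adjusted p of these 3 calls lay just under the threshold, and leaving out 1 library often took it above. This was so also for libraries of neither group. Those enter through the shared estimate of spread, the filter and the adjustment over all tested clusters. With 1 library left out the log2 differences ran from -0.97 to -0.72 in Cluster-9253.44382, from -1.59 to -1.06 in Cluster-9253.56143 and from -1.63 to -1.08 in Cluster-9253.43845. That on Cluster-9253.44382 was lost without UL replicates 1, 3 or 4 or UM replicates 1, 2 or 3. That on Cluster-9253.56143 was lost without Ck replicate 4, UM replicates 1, 2 or 3, or any UL or UH library, and that on Cluster-9253.43845 without these or Ck replicate 3. Over all alternatives the limma adjusted p ran from 0.0107 to 0.114, from 0.0342 to 0.135 and from 0.0274 to 0.121 in this order. Without Ck replicate 2 the count was 5, and it was 0 without UL replicates 1, 3 or 4 or UM replicates 1, 2 or 3, and 1 without Ck replicate 4, UL replicate 2 or any UH library.

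**Figure D5:**
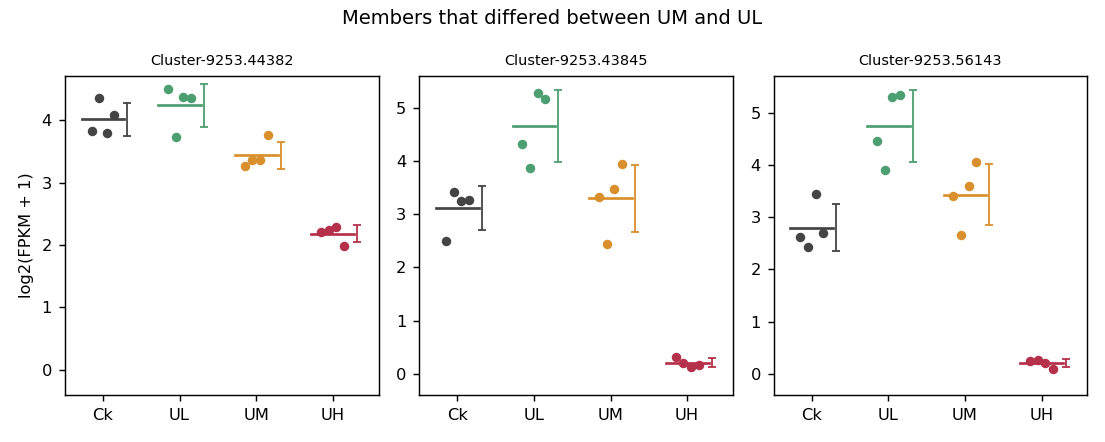
Panels show the 3 members that passed between UM and UL; points are libraries in replicate order, lines group means and bars SD (n = 4), on the log2(FPKM + 1) axis. UM means lie below UL means by 0.80, 1.36 and 1.31, and UH lies below all 12 other libraries in each panel.

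Because the rule used the UH values, limma counts against UH describe the choice and nothing is read from them. Against Ck all 100 members passed as lower in UH, beside 7.86% of tested clusters; against UL it was 99, beside 19.9%, and against UM 98, beside 2.55%. The 2 exceptions were Cluster-9253.47647 against UL and UM and Cluster-9253.28970 against UM. The median log2 difference of all tested clusters was -0.15 against Ck, -0.27 against UL and -0.19 against UM. Beside these, the members' medians were -2.46, -2.91 and -2.56.

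Clusters with all values of 1 group below the 12 others were counted for each group, without the condition on UM. In UH 2423 clusters lay below all 12 other libraries, 6.21% of tested clusters when the filter is applied. The count was 45 for Ck, 328 for UL and 49 for UM. In the opposite direction 570 clusters had every UH value above the 12 others, against 143 for Ck, 408 for UL and 164 for UM. These are counts with no test, and the count for UH depended on scaling. After median ratio scaling 842 clusters met the full rule in place of 2358, among them all 100 members. The counts for Ck, UL and UM were not repeated after scaling, so the groups cannot be compared on that basis.

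The gap grows with the level outside UH, so the members' high level there was set by the choice and is given as a description, beside their length. Their length ran from 339 to 20812 bases with a median of 2444, and 85% were at least 1000 bases long, beside a median of 1227 bases and 56.3% for all tested clusters. The 2171 tested clusters that met the rule had a median of 2748 bases, close to that of the 100. The median level over the 12 libraries was 17.3 FPKM for the middle member, 5.08 FPKM for the tested clusters that met the rule and 2.59 FPKM for all tested clusters. All 100 members share the first number of their names, as do 98.3% of tested clusters.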

How the data were processed

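Poly-A RNA of whole spiders was made into random-primed cDNA libraries for Illumina sequencing, per the labels' protocols. The authors deposited 1 table of FPKM values, rounded to 2 decimals, and the cluster length, taken to be in bases. Which assembler, aligner and counter made it is not given in the sources used here. A mouse genome build appears in the submitters' processing notes and does not match the organism. Depth was estimated from the steps of low FPKM values in a sample of clusters of limited length, with an effective length of normal fragment spread. Depth and mean fragment length were chosen so that such values came out whole. Of these clusters' values worth 1 to 10 fragments, 98.9 to 99.3% were whole within 0.1. This share is therefore no separate check. Shorter and longer clusters, most members among them, were not part of it. Fragments are estimates, so no count model was used.

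Values entered as log2(FPKM + 1), and a difference on this scale understates the change of low clusters. The 36003 clusters that reached 1 FPKM in 4 or more libraries were fitted over all 16 libraries (limma 3.58.1 under R 4.3.3, trended prior variance, 12 residual degrees of freedom). Tests were two-sided, with Benjamini-Hochberg adjustment over all tested clusters and a threshold of 0.05. The fit and the depth search were tested on simulated data. Alternatives were a pseudocount of 0.1, no filter, median ratio scaling, a fit of the 2 groups compared alone, array weights, a replicate block and each library left out.

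Named members are the 12 first by rank, the 5 most abundant, the 5 longest, the 3 shortest, the 4 steadiest and 4 most spread over the 12 libraries, the 4 highest in UH, the 4 with the largest and the 4 with the smallest differences between UM and Ck and between UL and Ck, and up to 5 called per comparison among Ck, UL and UM, 38 in all. Cluster-9253.72011, Cluster-9253.41586, Cluster-9253.31075, Cluster-9253.31076, Cluster-9253.40118 and Cluster-9253.56039 were named after their values were seen. The members and lists were chosen with earlier results of these data known.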

Additional observations from a re-analysis of the deposited data

Results flagged for a closer look

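In 148 groups of 4 libraries, over the 38 named members, 5 held a library set apart from the other 3 on the log2(FPKM + 1) scale by Dixon's 95% criterion on the gap relative to the group's range. Chance flags about 1 in 20 groups. Cluster-9253.53118 had 6.4 FPKM in Ck replicate 1 and 21.5 to 21.69 FPKM in the other Ck libraries. Cluster-9253.51168 had 46.09 FPKM in UM replicate 3 and 19.87 to 21.93 FPKM in the other UM libraries, and Cluster-9253.47211 had 152.13 FPKM there and 88.13 to 92.07 FPKM in the others. Cluster-9253.49764 had 3.59 FPKM in UH replicate 2 and 0.64 to 0.91 FPKM in the other UH libraries. Cluster-9253.47647 had 0.12 FPKM in UH replicate 4, an estimated 1 fragment, and was listed at 0 in the other UH libraries.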

How the results depend on the processing

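The list of members depended on the pseudocount more than on scaling: 73 of the 100 were again among the first 100 with a pseudocount of 0.1 and 95 after median ratio scaling, and 85 to 100 with 1 library left out. All 100 met the rule after median ratio scaling, and 98 to 100 did with 1 library left out; a pseudocount cannot change which clusters meet it. The number of clusters that met the rule was 842 after median ratio scaling, and 2388 to 3571 with 1 library left out; fewer libraries relax the first condition by construction, and the highest count was without UH replicate 4. Between UL and Ck the count of members was 1 with array weights and 0 to 3 with 1 library left out. Between UM and UL it was 1 with a pseudocount of 0.1, 0 with no filter, 1 after median ratio scaling, 0 in a fit of the 2 groups alone, 0 with array weights, and 0 to 5 with 1 library left out; the cause was not tested. Between UM and Ck it was 0 in all 22 alternatives. The counts against UH lay between 90 and 100 throughout. Correlations of same-numbered libraries' deviations ran from -0.28 to 0.26, over 0.1 in 5 of 24 pairs, and those of other pairs from -0.39 to 0.46. No pairing by number was seen, though a weak one could be missed. With a replicate block 0, 0 and 2 members passed for UL against Ck, UM against Ck and UM against UL. Short members at low FPKM rest on few fragments, which limits what UH values near 0 can show.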
